A study of Mus musculus with 59 samples.

Results

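The untimed KLS libraries are 4 of the 59 samples of a mouse study of Daxx loss in blood formation: 2 libraries labelled Daxx F/F Cre +/- (Daxx-KO) and 2 labelled Daxx +/+ Cre +/- (WT). They were chosen by their labels alone, as the KLS samples whose labels give no time after deletion and whose values stand in 1 table of all genes. KLS cells are the c-Kit+ Lin- Sca-1+ fraction of bone marrow, and the mice were of the strain C57BL/6. All 4 libraries carry Cre +/-, so that Cre was present in both groups, and the floxed Daxx alleles were the labelled difference between them. The labels give no Cre driver, age or time since deletion for these 4 libraries, and do not say whether libraries of a group came from separate mice. The study's methods describe KLS cells taken at set times after induced deletion and KLS donor cells sorted from irradiated recipients of a bone marrow transplant. They name TRIzol extraction and the Ovation SoLo library kit for the transplanted cells alone, and the labels give both for these 4 libraries, as for all 59 samples. Labels shared by all samples do not tell these sources apart. The 4 libraries may come from transplanted recipients, which their labels do not state. P-values measure only the spread between these samples, which may be technical.

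Daxx is a histone chaperone that deposits the variant histone H3.3, together with Atrx at repeats and other silent chromatin. The KLS fraction holds the long-term stem cells and the multipotent progenitors below them, some of which lean towards the granulocyte and monocyte lineages and others towards lymphocytes. Stem cells are known by transcription factors such as Mecom and Hlf, granulocyte-monocyte progenitors by the proteases of the azurophil granule, and lymphoid-primed progenitors by Dntt, Il7r and immunoglobulin transcripts. In bulk RNA from such a mixed fraction, fewer cells of a type and less RNA per cell cannot be told apart.

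Values are normalized counts, which are reads per gene divided by 1 size factor per library. Each group has 2 libraries, and values are given for library 1 and then library 2. The WT libraries held 3857858 and 3942149 reads in genes, and the Daxx-KO libraries 6343790 and 22647397. Daxx stood at 119 and 138 in WT and 33.9 and 29.7 in Daxx-KO (log2 fold change −1.98, SE 0.29, adjusted p 0.0016), and the groups did not overlap. Of the genes for the sorted surface proteins, Kit was at 6477 and 7033 in WT and 3399.9 and 3192 in Daxx-KO. Ly6a, which encodes Sca-1, stood at 136 and 114 in WT and 474 and 485 in Daxx-KO. Cd34 was at 1357 and 1521 in WT and 468 and 542 in Daxx-KO. Kit and Cd34 were lower and Ly6a higher in both Daxx-KO libraries (log2 fold changes −1.03, −1.51 and 1.94). The leukocyte gene Ptprc stood at 4242 and 4403 in WT and 4527 and 4416 in Daxx-KO. The T-cell gene Cd3e was at 10.3 and 0 in WT and 0 and 0 in Daxx-KO, and Cd8a was also at or near 0 in all libraries. WT library 1 stood apart in transcripts of mature neutrophils: the 16 genes of that list summed to 6977 there, 303 in WT library 2, and 1546 and 2353 in the Daxx-KO libraries. Transcripts of plasma cells summed to 9341 and 3267 in the WT libraries and to 770.1 and 929 in the Daxx-KO libraries.

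Of 13508 genes whose mean value reached 10, 3118 were called at an adjusted p under 0.05 by limma on log2(value + 1), which is 23.1% of those tested. Of these, 1427 (10.6%) were higher and 1691 (12.5%) lower in Daxx-KO, and in every called gene the 2 groups did not overlap, as in 62.8% of all tested genes (32.9% with Daxx-KO higher and 29.8% with Daxx-KO lower). The falls were deeper than the rises. The median fold was 3.22 among the genes that fell and 1.76 among those that rose, 727 genes fell and 220 rose by 4-fold or more, and 272 fell and 61 rose by 16-fold or more. The number of calls was far lower without either Daxx-KO library than without either WT library. With 1 library left in an arm, that library is assumed to vary like the other group. Without a Daxx-KO library the spread therefore came from the WT pair alone, which lay further apart. The SD of the log2 difference between the 2 libraries was 0.85 in the WT pair and 0.44 in the Daxx-KO pair. The part of this spread in the lower number of calls was not tested. Counts given with 1 library left out follow the order Daxx-KO library 1, Daxx-KO library 2, WT library 1, WT library 2.

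**Figure D1:**
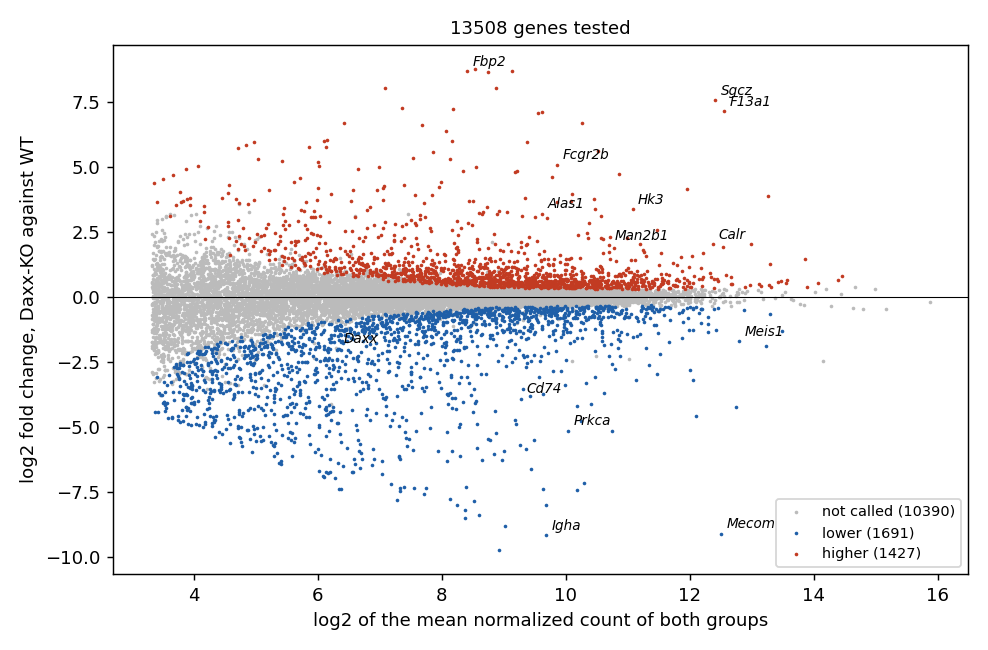
Log2 fold change, Daxx-KO against WT, of the 13508 genes tested (y axis) against the log2 of their mean normalized count over both groups (x axis), with each gene 1 point, coloured by its call. The 1691 genes called lower reach further from 0 than the 1427 called higher, with Mecom at −9.10 and F13a1 at 7.15.

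Immunoglobulin genes, predicted Gm genes and Riken clones were left out of a ranking by size among called genes whose mean value reached 50. The 15 largest rises in it ran from 5.99 to 8.69 on the fitted log2 scale, and the 15 largest falls from −6.87 to −9.10. Several of the genes that rose furthest are known from other tissues: Fbp2 and Sgcz from muscle, Strc from the hair cells of the inner ear, Npy from neurons and Sele from endothelium. Others belong to myeloid cells, such as F13a1 and Cd200r3. The genes that fell furthest in this ranking included stem-cell genes (Mecom, Fgd5), lymphoid genes (Dntt, Blnk, Jchain), hormone receptors (Lhcgr, Pgr) and the calcium channel Trpc6. In 11 of the 15 largest falls the mean in Daxx-KO was under 10. Such genes could reach a mean value of 50 only through high WT values, which the filter therefore required. In 10 of the 15 largest rises the mean in WT was under 10. Those genes passed only through high Daxx-KO values, so that the filter fixed their direction. All 15 falls were called whichever library was left out, whereas 2 of the 15 rises were called without Daxx-KO library 1, 2 without Daxx-KO library 2 and 15 without either WT library.

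F13a1 (chromosome 13, 36867178–37050244, minus strand; GRCm38, like all gene positions here) encodes the A subunit of coagulation factor XIII and stood at 188 and 36.2 in WT and 10806 and 13035 in Daxx-KO (log2 fold change 7.15, SE 0.58, adjusted p 6.7e-05). Both Daxx-KO libraries lay far above both WT libraries. Sgcz, which encodes zeta-sarcoglycan, was as abundant, at 134 and 22.4 in WT and 11599 and 9991 in Daxx-KO (log2 fold change 7.58, SE 0.63), and C3 (chromosome 17, 57203970–57228136, minus strand), the central component of complement, was at 112 and 0 in WT and 1222 and 1789.7 in Daxx-KO (log2 fold change 7.12, SE 1.68). For genes with 1 to 3 reads in WT, the ratio of summed reads per unit of depth is given with its counting interval. Fbp2 stood at 1.72 and 0 in WT and 679 and 682 in Daxx-KO, a ratio of 792-fold (95% interval 142 to 31276). Strc, which encodes stereocilin, was at 1.72 and 1.72 in WT and 1219 and 1030.3 in Daxx-KO, a ratio of 622-fold (95% interval 172 to 5140.0). Its neighbour Ckmt1, a mitochondrial creatine kinase, stood at 0 and 1.72 in WT and 186 and 154 in Daxx-KO, a ratio of 187-fold (95% interval 33.5 to 7405). These neighbours on chromosome 2 overlap. Without a stated use of strand, reads of one cannot be told from reads of the other, while the next gene, Catsper2, was not called (41.3 and 36.2 in WT and 45.9 and 43.9 in Daxx-KO). Npy, the gene of neuropeptide Y, had no reads in WT and was at 342 and 201 in Daxx-KO, at least 52.6-fold higher against a floor of 3 reads in each WT library. Cd200r3, a receptor of the CD200 family found on basophils and mast cells, stood at 3.44 and 0 in WT and 772 and 937 in Daxx-KO. The Mas-related receptors Mrgpra2a and Mrgpra2b, near-identical copies whose reads may be split between them, rose from 0 and 3.44 to 147 and 125 and from 13.8 and 1.72 to 554 and 504. The endothelial adhesion gene Sele rose from 6.88 and 8.61 to 502 and 623, and the phosphodiesterase Pde11a from 43.01 and 8.61 to 1361 and 1246. The protocadherin Pcdh11x rose from 53.3 and 8.61 to 1994 and 2823. Plekhh2 rose from 1.72 and 5.17 to 410.2 and 399. Tmem178, a regulator of calcium release, stood at 3.44 and 0 in WT and 108 and 172 in Daxx-KO, a ratio of 91.8-fold (95% interval 25.3 to 759.7). In each of these genes both Daxx-KO libraries were higher than both WT libraries.

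**Figure D2:**
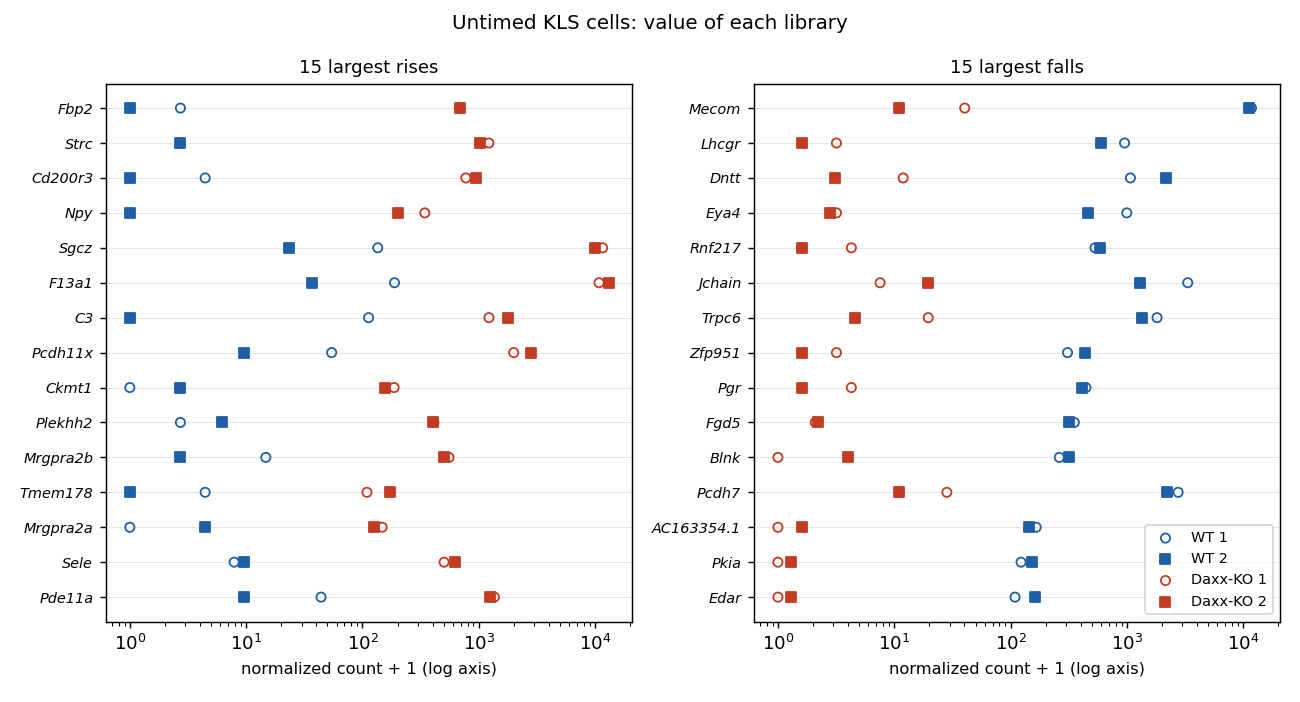
Normalized count + 1 of each library (log x axis) for the 15 genes that rose most and the 15 that fell most in the ranking without immunoglobulin genes, Gm genes and Riken clones. Open symbols are library 1 and filled symbols library 2 of each group, coloured by group. The 2 groups are separated in all 30 genes, and Mecom is at 11791 and 11284 in WT and at 39.4 and 10 in Daxx-KO.

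Mecom (chromosome 3, 29951296–30548008, minus strand), a zinc finger factor needed by long-term stem cells, fell furthest in that ranking, from 11791 and 11284 in WT to 39.4 and 10 in Daxx-KO (log2 fold change −9.10, SE 0.47, adjusted p 7.4e-06). Fgd5, a guanine nucleotide exchange factor used as a stem-cell marker, was at 353 and 317 in WT and 1.09 and 1.21 in Daxx-KO. Dntt (chromosome 19, 41029275–41059525, plus strand), the terminal transferase of lymphoid progenitors, stood at 1072 and 2182 in WT and 10.9 and 2.12 in Daxx-KO (log2 fold change −7.97, SE 0.58, adjusted p 3.8e-05), and Blnk (chromosome 19, 40928927–40994535, minus strand), the linker of pre-B-cell receptor signalling, at 261 and 317 in WT and 0 and 3.03 in Daxx-KO (log2 fold change −7.17, SE 0.68, adjusted p 0.00015). In these 4 genes the highest Daxx-KO library lay far below the lowest WT library. Jchain, which joins polymeric IgA and IgM, was at 3336 and 1290.1 in WT and 6.56 and 18.5 in Daxx-KO. Receptor genes also fell: Lhcgr, for luteinizing hormone, from 955 and 598 to 2.19 and 0.606, Pgr, for progesterone, from 444 and 406 to 3.28 and 0.606, and Edar, for ectodysplasin, from 108 and 162 to 0 and 0.303. The transcriptional coactivator gene Eya4 fell from 998 and 458 to 2.19 and 1.82. The ubiquitin ligase gene Rnf217 fell from 532 and 591 to 3.28 and 0.606. The zinc finger gene Zfp951 was at 308 and 438 in WT and 2.19 and 0.606 in Daxx-KO. The protocadherin Pcdh7 fell from 2758 and 2203 to 27.3 and 10. Pkia, an inhibitor of protein kinase A, fell from 122 and 153 to 0 and 0.303. AC163354.1, a gene with no position in the annotation used, stood at 165 and 143 in WT and 0 and 0.606 in Daxx-KO.

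The promoters of 6 of these genes are shown to set the sequence beside the direction of change, since myeloid genes rose and lymphoid genes fell. Each run is the 250 bases before the gene's start (RefSeq, GRCm38.p6, whose starts can differ from those of the gene positions above), 5′ to 3′ on the gene's strand. Capitals mark matches on either strand. The motifs searched were GAGGAAG, a core bound by the Ets factor PU.1 of myeloid cells, and TTNNGNAA, which the C/EBP factors bind. Also searched were the E-protein motif CAGGTG, known from lymphoid genes, and the motif AGATAA of the GATA factors.
Cd200r3, rose (chr16:44943428-44943677, plus strand): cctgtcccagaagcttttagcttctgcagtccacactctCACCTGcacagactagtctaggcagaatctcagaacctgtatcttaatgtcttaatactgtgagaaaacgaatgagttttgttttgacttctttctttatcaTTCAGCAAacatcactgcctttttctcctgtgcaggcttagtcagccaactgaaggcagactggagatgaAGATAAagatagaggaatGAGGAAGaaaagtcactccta
F13a1, rose, the upstream of 2 starts, the other of which held no match (chr13:37050245-37050494, minus strand): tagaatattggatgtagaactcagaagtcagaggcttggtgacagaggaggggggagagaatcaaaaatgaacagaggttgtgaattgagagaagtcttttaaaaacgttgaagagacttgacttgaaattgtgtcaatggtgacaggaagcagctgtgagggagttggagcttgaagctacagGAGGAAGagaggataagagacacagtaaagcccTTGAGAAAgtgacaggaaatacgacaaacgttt
C3, rose (chr17:57228137-57228386, minus strand): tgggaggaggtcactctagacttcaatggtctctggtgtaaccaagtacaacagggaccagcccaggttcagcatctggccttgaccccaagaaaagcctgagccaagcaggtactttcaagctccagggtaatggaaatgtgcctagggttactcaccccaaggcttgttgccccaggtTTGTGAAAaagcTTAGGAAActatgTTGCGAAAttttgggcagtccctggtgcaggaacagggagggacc
Dntt, fell (chr19:41029025-41029274, plus strand): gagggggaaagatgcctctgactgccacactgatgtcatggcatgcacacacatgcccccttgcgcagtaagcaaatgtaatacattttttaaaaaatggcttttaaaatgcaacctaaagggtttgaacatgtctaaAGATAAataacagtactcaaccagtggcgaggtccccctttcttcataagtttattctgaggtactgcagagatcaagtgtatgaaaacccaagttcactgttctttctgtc
Blnk, fell (chr19:40994222-40994471, minus strand): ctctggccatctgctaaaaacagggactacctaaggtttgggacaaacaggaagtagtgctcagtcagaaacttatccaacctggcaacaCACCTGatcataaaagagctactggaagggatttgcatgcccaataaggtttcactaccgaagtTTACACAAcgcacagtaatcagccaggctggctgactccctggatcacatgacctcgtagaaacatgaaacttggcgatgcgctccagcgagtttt
Jchain, fell (chr5:88527898-88528147, minus strand): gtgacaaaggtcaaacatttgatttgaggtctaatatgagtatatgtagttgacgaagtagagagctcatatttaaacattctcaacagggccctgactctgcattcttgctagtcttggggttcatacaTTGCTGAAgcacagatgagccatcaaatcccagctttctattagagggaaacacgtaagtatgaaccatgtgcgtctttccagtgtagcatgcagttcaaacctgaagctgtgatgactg
The C3 promoter held 4 TTNNGNAA matches, 1 of them on the opposite strand and overlapping another, and the Cd200r3 promoter held 1 match to each motif. Of the 32851 promoters in the table, GAGGAAG was in 10.6%, TTNNGNAA in 36.8%, CAGGTG in 17.2% and AGATAA in 9.99%. Among the 13 genes with a promoter in each direction, GAGGAAG was in 3 of those that rose and 1 of those that fell, TTNNGNAA in 7 and 6, CAGGTG in 7 and 3, and AGATAA in 1 and 1. A gene with several starts was counted if any of them held the motif, whereas the shares are of single promoters, so the 2 are unlike measures. A match describes the letters only, and binding was not measured.

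Genes of the long-term stem cell and of the megakaryocyte, which shares many of them, were lower. Of 19 tested stem-cell markers 15 fell (median log2 fold change −1.57, against 0.03 over all genes), and the count was 8, 7, 14 and 15 with 1 library left out. Hlf, a factor of the PAR bZIP family, was at 5157 and 4852 in WT and 738 and 578 in Daxx-KO (log2 fold change −2.93, SE 0.13). Gfi1b, a repressor of stem cells and megakaryocytes, stood at 209.9 and 129 in WT and 32.8 and 16.1 in Daxx-KO. Meis1, a partner of Hox proteins, was at 10752 and 10968 in WT and 3434 and 3336 in Daxx-KO (log2 fold change −1.68, SE 0.09). Slamf1 (CD150) stood at 239 and 98.2 in WT and 32.8 and 29.1 in Daxx-KO and Procr (EPCR) at 94.6 and 122 in WT and 31.7 and 25.8 in Daxx-KO, both with every Daxx-KO library below every WT library. Robo4, in contrast, was not called (188 and 133 in WT and 127 and 124 in Daxx-KO), nor was Gata2 (883 and 863 in WT and 1152 and 1048 in Daxx-KO). Of 12 tested megakaryocyte markers 9 fell (median −1.83; 5, 3, 8 and 11 with 1 library left out). The integrin Itgb3 was at 325 and 339 in WT and 13.1 and 10.6 in Daxx-KO (log2 fold change −4.70, SE 0.29). Rab27b, a GTPase of platelet granules, stood at 299 and 226 in WT and 10.9 and 9.70 in Daxx-KO (log2 fold change −4.53, SE 0.32). Itga2b and Vwf are among the genes in both lists. The homeobox genes Hoxa9, from 396 and 580.5 to 103 and 83.03, and Hoxa10, from 89.5 and 112 to 9.85 and 9.39, fell as well, while Hoxa7 was at 212 and 208 in WT and 156 and 115 in Daxx-KO and was not called. Both Hoxa calls were lost without either Daxx-KO library.

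**Figure D3:**
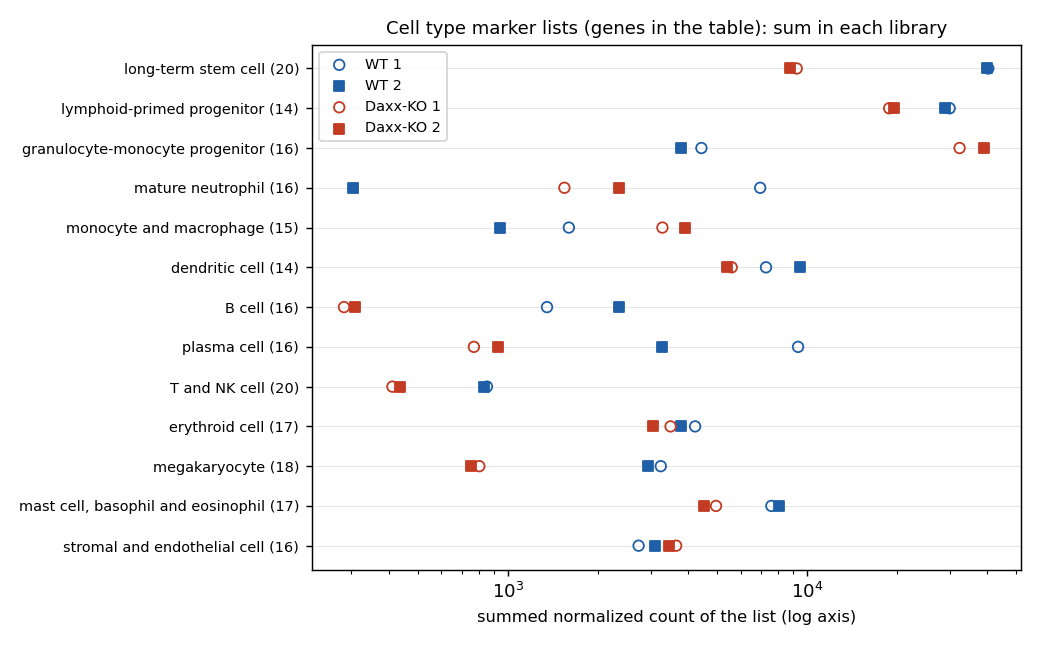
Summed normalized count of each cell type marker list (genes in the table in brackets) in each of the 4 libraries, on a log axis. Both Daxx-KO libraries lie below both WT libraries for the stem-cell, megakaryocyte, B-cell and plasma-cell lists and above them for the granulocyte-monocyte progenitor list, and for mature neutrophils WT library 1 is highest at 6977 and WT library 2 lowest at 303.

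Lymphoid genes were lower along the path from the lymphoid-primed progenitor to the B cell, with named exceptions. Of 12 tested lymphoid-primed markers 6 fell and 2 rose (median −0.87), and 4, 3, 6 and 6 fell with 1 library left out. Il7r, the interleukin 7 receptor of early lymphocytes, stood at 119 and 231 in WT and 2.19 and 1.82 in Daxx-KO (log2 fold change −5.80, SE 0.54, adjusted p 0.00013). The chromatin organizer Satb1 was at 1767 and 2689 in WT and 4252 and 3839.5 in Daxx-KO (log2 fold change 0.89, SE 0.18). Il12a fell (log2 fold change −1.89), whereas Ikzf1 and Notch1 were not called (log2 fold changes 0.08 and 0.43). Of 11 tested B-cell markers 9 fell (median −1.93; 2, 1, 8 and 7 with 1 library left out), among them Cd72 (log2 fold change −2.82). The kinase Blk was at 32.7 and 70.6 in WT and 0 and 1.21 in Daxx-KO. Cd79a of the antigen receptor was at 48.2 and 32.7 in WT and 4.38 and 1.52 in Daxx-KO. Cd79b, the partner of Cd79a, rose instead (61.9 and 49.95 in WT and 119 and 149.7 in Daxx-KO; log2 fold change 1.25, SE 0.26). Of 24 tested genes of B-cell receptor signalling 11 fell and 5 rose, and the median, −0.08, was near that of all genes. Fcgr2b, the inhibitory Fc receptor, rose furthest in that list, at 55.05 and 48.2 in WT and 1690.1 and 1923 in Daxx-KO (log2 fold change 5.10, SE 0.15, adjusted p 1.3e-06), and stayed called whichever library was left out. The shared signalling genes Lyn, Plcg2 and Inpp5d were not called (log2 fold changes 0.14, 0.13 and 0.02).

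Immunoglobulin genes stood at high values in WT and low values in Daxx-KO. The 183 heavy-chain variable segments in the table summed to 3786 and 1709 in WT and 27.3 and 23.9 in Daxx-KO, and the 160 kappa variable segments to 6153 and 2498 in WT and 33.9 and 54.5 in Daxx-KO. Only 31 heavy-chain and 27 kappa segments passed the filter on mean value. Of these, 19 and 17 had no reads in Daxx-KO and passed through WT alone, so that the filter itself fixed their direction. Of the tested segments, 17 heavy-chain and 9 kappa segments were called, all lower. With 1 library left out the heavy-chain count was 2, 1, 20 and 28 and the kappa count 4, 4, 10 and 25. By edgeR on the recovered reads 29 heavy-chain and 24 kappa segments were called lower. Ighv11-2 stood at 516 and 686 in WT and 4.38 and 0 in Daxx-KO. Igkv14-126 was at 876 and 1199 in WT and 4.38 and 0 in Daxx-KO. All 5 tested constant genes fell (3, 2, 4 and 5 with 1 library left out). Ighm, the constant gene used first in B-cell development, stood at 16203 and 9908 in WT and 549 and 839 in Daxx-KO (log2 fold change −4.22, SE 0.25). Igha stood at 2945 and 349.6 in WT and 2.19 and 0 in Daxx-KO (log2 fold change −9.15, SE 0.92), the largest fall of a constant gene, and its call was lost without either Daxx-KO library. Ighd stood at 70.5 and 99.9 in WT and 21.9 and 21.2 in Daxx-KO. Of 12 tested plasma-cell markers 9 fell and 1 rose (5, 4, 7 and 9 fell with 1 library left out). Sdc1 (CD138) was at 115 and 75.8 in WT and 0 and 0.909 in Daxx-KO. Mzb1, an ER chaperone of antibody secretion, was at 37.8 and 39.6 in WT and 1.09 and 0.303 in Daxx-KO. Xbp1, a factor of the secretory programme, rose (log2 fold change 0.79, SE 0.15). Prdm1, the factor that drives plasma-cell differentiation, was at 73.97 and 53.4 in WT and 9.85 and 9.09 in Daxx-KO. WT library 1 had the higher value of the 2 WT libraries in Jchain and in the summed list. The part of such transcripts in the differences was not tested.

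The genes of antigen presentation split by class. Of 17 tested MHC class II genes 9 fell (median −1.77; 4, 4, 8 and 8 with 1 library left out), and of 17 class I genes 7 rose (median 0.32; 2, 1, 3 and 5). H2-Eb1 was at 322 and 312 in WT and 10.9 and 13.3 in Daxx-KO (log2 fold change −4.60, SE 0.29). H2-Aa stood at 458 and 579 in WT and 48.1 and 31.5 in Daxx-KO. Cd74, the invariant chain that guides class II molecules to peptide, was at 1237 and 1085 in WT and 82.04 and 71.2 in Daxx-KO (log2 fold change −3.90, SE 0.15, adjusted p 4.5e-06). The ubiquitin ligase March1, which removes class II from the surface, fell too (274 and 139.5 in WT and 32.8 and 31.8 in Daxx-KO). On the class I side H2-D1 stood at 1696 and 1652 in WT and 2739 and 3376 in Daxx-KO (log2 fold change 0.86, SE 0.12). H2-K1 was at 2998 and 3140.0 in WT and 4573 and 5122 in Daxx-KO (log2 fold change 0.66, SE 0.10). Tapbp, which loads peptide on class I and lies next to Daxx on chromosome 17, stood at 475 and 382 in WT and 1027 and 1009.7 in Daxx-KO (log2 fold change 1.26, SE 0.13). The other neighbours of Daxx named here, Kifc1 and Rgl2, were not called (log2 fold changes 0.29 and 0.61). Among dendritic-cell markers, Itgax (CD11c) fell from 68.8 and 55.1 to 1.09 and 0.303, Clec9a fell (log2 fold change −4.25) and Cst3 rose (log2 fold change 0.73).

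Granulocyte-monocyte genes rose. Of 16 tested progenitor markers 13 rose and 1 fell (median 2.35; 4, 2, 13 and 11 rose with 1 library left out), and of 19 azurophil granule genes 12 rose (median 1.09; 4, 2, 11 and 10). Nkg7, a granule protein of cytotoxic cells, was the marker that fell (log2 fold change −1.13, SE 0.19), and Irf8 and Fcgr3 were not called. Prss57, a granule serine protease, was at 24.1 and 20.7 in WT and 311 and 407 in Daxx-KO (log2 fold change 3.93, SE 0.26). Prtn3, which encodes proteinase 3, stood at 404 and 258 in WT and 2074 and 2596 in Daxx-KO. Ctsg, which encodes cathepsin G, was at 191 and 87.8 in WT and 1820.3 and 2264 in Daxx-KO. Ctsc, which activates these proteases, stood at 337 and 360.0 in WT and 414 and 663 in Daxx-KO and was not called. Cebpe, a factor of granule gene transcription, was at 3.44 and 0 in WT and 21.9 and 30.00 in Daxx-KO (a ratio of 16.4-fold (95% interval 4.44 to 137)). Cebpd stood at 17.2 and 18.9 in WT and 99.5 and 106 in Daxx-KO (log2 fold change 2.44, SE 0.34), while the related genes Cebpz and Cebpg were not called (log2 fold changes 0.04 and 0.04). The receptor for M-CSF, Csf1r, was at 30.96 and 46.5 in WT and 172 and 175 in Daxx-KO (log2 fold change 2.16, SE 0.28). The macrophage gene Cd68 stood at 27.5 and 68.9 in WT and 381 and 370.3 in Daxx-KO. Lysozyme, Lyz2, was at 689.8 and 281 in WT and 1876 and 2398 in Daxx-KO. Of 9 tested monocyte markers 5 rose (0, 0, 6 and 3 with 1 library left out). Of 8 tested markers of mast cells, basophils and eosinophils 1 rose and 1 fell (25.0% called against 23.1% of all genes). Mcpt8, a basophil protease, rose from 25.8 and 12.1 to 255 and 166, Kit fell, and Cpa3 was at 75.7 and 122 in WT and 57.98 and 43.03 in Daxx-KO and was not called.

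Genes of mature neutrophils gave no single direction, and WT library 1 differed from WT library 2. Of 13 tested markers 2 rose, and without WT library 1 the count was 11. S100a9, a subunit of calprotectin, stood at 1672 and 12.1 in WT and 118 and 280.0 in Daxx-KO. Ngp, a neutrophil granule protein, was at 1578 and 6.89 in WT and 87.5 and 183 in Daxx-KO, so that both Daxx-KO libraries lay between the WT libraries. Cxcr2, the chemokine receptor of neutrophils, rose (65.4 and 0 in WT and 304 and 372 in Daxx-KO; log2 fold change 5.37, SE 1.51).

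The oxidative and antioxidant genes of phagocytes also moved up. Of 18 tested genes of the NADPH oxidase and reactive oxygen 9 rose and 1 fell (median 0.43; 1, 1, 8 and 4 rose with 1 library left out). Hvcn1, the proton channel that sustains the oxidase, stood at 49.9 and 29.3 in WT and 1279.9 and 948 in Daxx-KO (log2 fold change 4.81, SE 0.27, adjusted p 9.9e-06). Peroxiredoxin Prdx5 stood at 115 and 115 in WT and 226 and 317 in Daxx-KO. Of 24 glutathione and NRF2 target genes 10 rose and 1 fell (median 0.54; 1, 1, 7 and 10). Gsr, glutathione reductase, was at 704 and 444 in WT and 2418 and 3167 in Daxx-KO (log2 fold change 2.30, SE 0.21). Mgst1, a membrane glutathione transferase, stood at 67.1 and 41.3 in WT and 153 and 201 in Daxx-KO. Gsta4, a glutathione transferase of lipid aldehydes, was at 37.8 and 29.3 in WT and 106 and 153 in Daxx-KO. Gpx1, glutathione peroxidase, stood at 1134 and 1275 in WT and 3082 and 3374 in Daxx-KO. Txnrd1 and Gclc, which are commonly taken as targets of NRF2, were not called (log2 fold changes 0.09 and −0.21). Of 36 lysosome and autophagy genes 17 rose (median 0.55; 1, 0, 15 and 10), including cathepsin Z (Ctsz; 158 and 124 in WT and 548 and 679.7 in Daxx-KO). Alpha-galactosidase (Gla) was at 102 and 152 in WT and 378 and 565 in Daxx-KO, and the hexosaminidase gene Hexa at 289 and 208 in WT and 499.9 and 611 in Daxx-KO. The autophagy gene Atg7 was not called (log2 fold change 0.07).

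Genes of complement and coagulation split. Of 19 tested 5 rose and 6 fell, and the median (−0.33) and mean (0.67) of the list differed in sign. C4b rose with C3, from 3.44 and 0 to 101 and 127, a ratio of 70.4-fold (95% interval 19.4 to 583), and factor X (F10) was at 5.16 and 8.61 in WT and 80.95 and 81.2 in Daxx-KO. Pros1, which encodes the anticoagulant protein S, fell (80.9 and 109 in WT and 5.47 and 12.4 in Daxx-KO; log2 fold change −3.34, SE 0.50). No call of this list was kept without either Daxx-KO library.

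**Figure D4:**
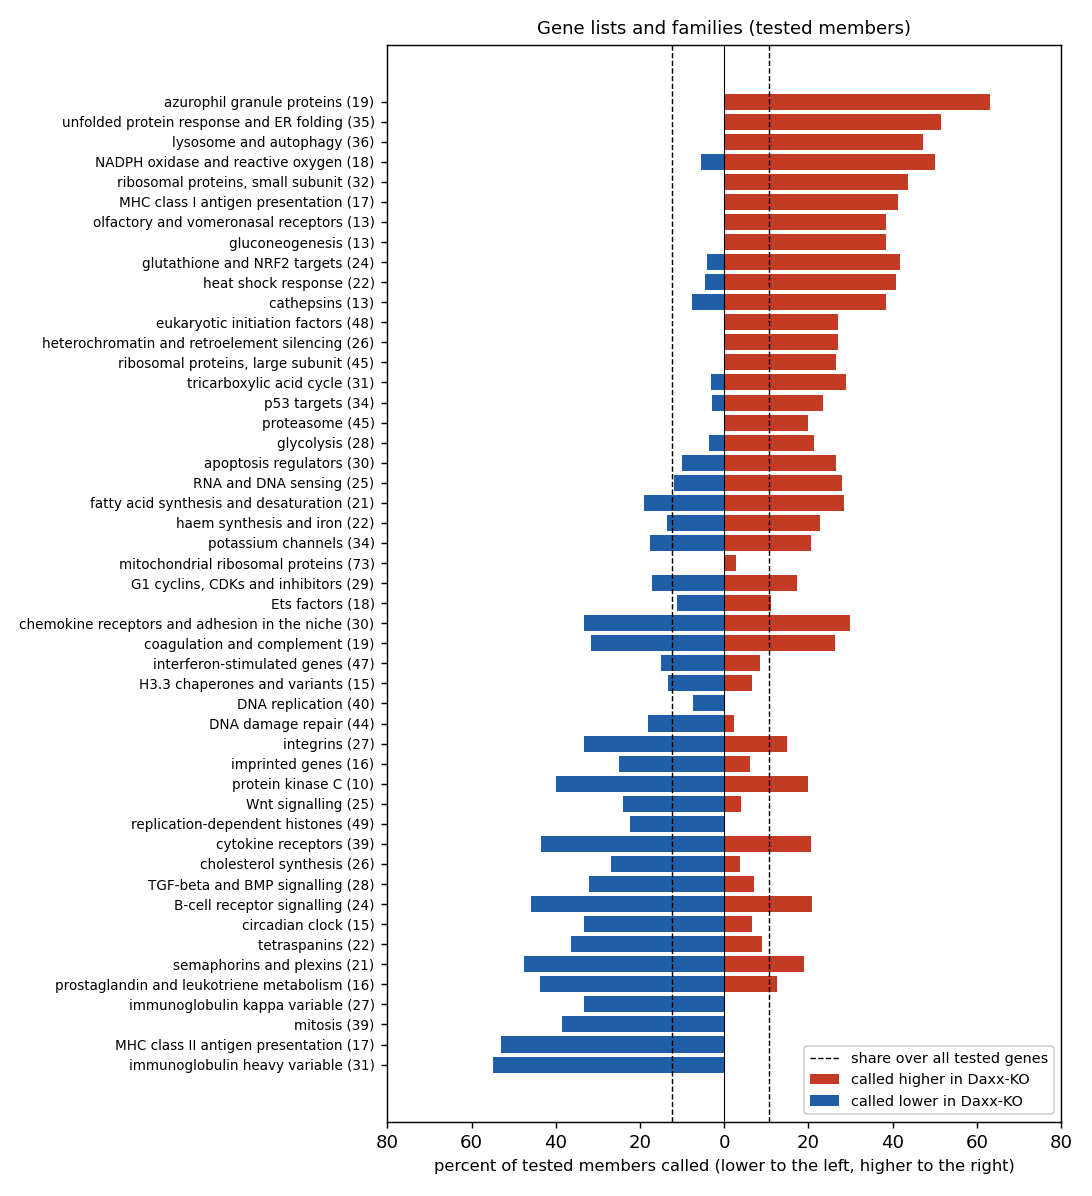
Percent of the tested members of each gene list or family described here, other than cell type markers and those with under 10 tested members (number tested in brackets), called higher (red, to the right) or lower (blue, to the left) in Daxx-KO, with dashed lines at the shares over all tested genes, 10.6% higher and 12.5% lower. Azurophil granule genes stand at 12 of 19 higher and MHC class II genes at 9 of 17 lower, and the immunoglobulin variable segments drawn are those that passed the filter on mean value, mostly through WT.

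Genes of protein folding and translation rose by smaller amounts in many members. Of 35 tested genes of the unfolded protein response and ER folding 18 rose (median 0.54; 3, 2, 12 and 9 with 1 library left out). Calreticulin (Calr), an ER chaperone that binds calcium, stood at 1965 and 2153 in WT and 8083 and 8896 in Daxx-KO (log2 fold change 2.04, SE 0.10, adjusted p 7e-06). Protein disulfide isomerase (P4hb) was at 981 and 975 in WT and 2163 and 3063 in Daxx-KO. The translocon subunit Sec61b was at 53.3 and 149.8 in WT and 267 and 273 in Daxx-KO. Hyou1, an ER chaperone of the Hsp70 family, stood at 384 and 412 in WT and 867 and 974 in Daxx-KO. Atf6, Sel1l and Dnajc3 were not called (log2 fold changes −0.11, −0.03 and −0.22). Of 22 heat shock genes 9 rose and 1 fell (median 0.31; 1, 0, 7 and 4 rose). The inducible pair, near-identical copies whose reads may be split, rose, Hspa1a from 61.9 and 107 to 253 and 281 and Hspa1b from 349 and 503 to 1247 and 997. The constitutive Hspa8 stood at 2885 and 2797 in WT and 4416 and 5164 in Daxx-KO. Hsp90aa1 was not called (3679.7 and 3779 in WT and 3908 and 3572 in Daxx-KO).

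Of 45 tested proteins of the large ribosomal subunit 12 rose (median 0.36; 0, 0, 6 and 4 with 1 library left out) and of 32 of the small subunit 14 rose (median 0.42; 1, 0, 6 and 5). Rps2 stood at 853 and 882 in WT and 1438 and 1377 in Daxx-KO (log2 fold change 0.70, SE 0.10). Rpl10 was at 251 and 239 in WT and 427 and 465 in Daxx-KO (log2 fold change 0.86, SE 0.14). Of 48 initiation factors 13 rose (median 0.26; 0, 0, 8 and 6), such as Eif3g (log2 fold change 0.68, SE 0.15). Of 45 proteasome genes 9 rose (median 0.27; 0, 0, 3 and 3), among them Psme1 of the regulator PA28 (595 and 518 in WT and 768 and 939.7 in Daxx-KO; log2 fold change 0.61, SE 0.14). Among 73 mitochondrial ribosomal proteins 2 were called higher, a share below the 10.6% of all genes. Their median log2 fold change, 0.24, was still close to those of the initiation factors (0.26) and the proteasome genes (0.27). The difference from these lists was therefore in the calls and not in the median, and its cause was not tested.

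Genes of carbohydrate metabolism rose at selected steps. Of 28 glycolysis genes 6 rose and 1 fell (median 0.24; 4, 1, 6 and 6 rose with 1 library left out). Hexokinase 3 (Hk3), the hexokinase of myeloid cells, stood at 428 and 329 in WT and 4010.3 and 3864 in Daxx-KO (log2 fold change 3.39, SE 0.14, adjusted p 4.5e-06). Aldolase A (Aldoa) was at 419.8 and 525 in WT and 1288 and 1616 in Daxx-KO (log2 fold change 1.62, SE 0.15). Ldhb, the heart-type lactate dehydrogenase, was at 115 and 82.7 in WT and 282 and 419 in Daxx-KO. Ldha was not called (1373 and 1300.4 in WT and 1352 and 1451 in Daxx-KO). Of the glycolysis genes 25.0% were called in either direction, against 23.1% of all genes. Of 13 gluconeogenesis genes 5 rose (1, 1, 3 and 4), led by Fbp2 and its neighbour on chromosome 13, Fbp1, which turn fructose 1,6-bisphosphate back to fructose 6-phosphate. The remaining 3, G6pc3, Slc25a11 and Mdh2, rose by less (log2 fold changes 0.60, 0.57 and 0.43). Of 31 genes of the tricarboxylic acid cycle 9 rose and 1 fell (0, 0, 6 and 8 rose). The isocitrate dehydrogenases rose, Idh1 from 131 and 93.01 to 404 and 543 and Idh2 from 538 and 629 to 1132 and 1281. The malic enzyme Me1 fell from 44.7 and 24.1 to 7.66 and 5.76.

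Cholesterol and prostaglandin genes were more often lower than higher. Of 26 cholesterol genes 7 fell and 1 rose (median −0.38; 1, 1, 5 and 6 fell with 1 library left out). Sqle, squalene epoxidase, stood at 184 and 155 in WT and 74.4 and 58.8 in Daxx-KO. Cyp51, a sterol demethylase, was at 309.6 and 326 in WT and 143 and 175 in Daxx-KO. Hmgcs1, an early enzyme of the pathway, was not called (292 and 227 in WT and 187 and 245 in Daxx-KO). Of 21 genes of fatty acid synthesis and desaturation 6 rose and 4 fell, with Fads3 at 53.3 and 87.8 in WT and 223 and 222 in Daxx-KO. Acsl4, an acyl-CoA synthetase of arachidonate, stood at 848 and 885 in WT and 347 and 355 in Daxx-KO. Of 16 prostaglandin and leukotriene genes 7 fell and 2 rose (median −0.71; 3, 2, 7 and 7 fell). The prostaglandin E receptor Ptger3 was at 468 and 644 in WT and 36.1 and 37.6 in Daxx-KO (log2 fold change −3.86, SE 0.22). The prostaglandin D synthase Hpgds stood at 87.7 and 153 in WT and 16.4 and 26.7 in Daxx-KO and cyclooxygenase 1 (Ptgs1) at 356 and 231 in WT and 67.8 and 101 in Daxx-KO. The prostacyclin receptor Ptgir was at 24.1 and 8.61 in WT and 67.8 and 67.6 in Daxx-KO (log2 fold change 2.15, SE 0.52). Of 22 haem and iron genes 5 rose and 3 fell. Alas1, the first enzyme of haem synthesis outside red cells, rose most (148 and 158 in WT and 1344 and 1500.3 in Daxx-KO; log2 fold change 3.21, SE 0.13, adjusted p 4.5e-06), and the porphyrin exporter Abcg2 fell (893 and 758 in WT and 203 and 150.3 in Daxx-KO; log2 fold change −2.23, SE 0.18).

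Among genes of cell division, those of mitosis were most often called lower, by small amounts. Of 39 mitosis genes 15 fell (median −0.42; 1, 0, 8 and 9 with 1 library left out), among them the spindle midzone kinesin Kif23 (709 and 811 in WT and 383 and 289 in Daxx-KO; log2 fold change −1.19, SE 0.16) and the kinase Pbk (203 and 276 in WT and 110.5 and 117 in Daxx-KO). Of 40 DNA replication genes 3 fell, below the 12.5% of all genes. They were the polymerase and primase genes Pola1 (log2 fold change −0.39) and Prim1 (log2 fold change −0.49) and the ligase Lig1 (log2 fold change −0.37). Of 49 replication-dependent histone genes 11 fell (median −0.34; 2, 0, 1 and 5), by 1.17 at most on the log2 scale (Hist1h4m; 77.4 and 62.01 in WT and 36.1 and 25.2 in Daxx-KO). Of these histone genes 22.4% were called, all lower, against 12.5% called lower over all genes. Of 44 DNA repair genes 8 fell and 1 rose, so that 20.5% were called, against 23.1% of all genes. Fewer falls were called without either Daxx-KO library. Fanci was at 373 and 388 in WT and 189 and 221 in Daxx-KO. Brca2, a gene of homologous recombination, stood at 1063 and 1046 in WT and 717 and 631 in Daxx-KO, and Atm and Prkdc were not called (log2 fold changes −0.11 and −0.08).

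The G1 regulators changed in both directions: of 29 tested, 5 rose and 5 fell. Cyclin D2 (Ccnd2) was at 1431 and 1700.0 in WT and 232 and 199 in Daxx-KO (log2 fold change −2.85, SE 0.14, adjusted p 6.3e-06) and stayed called whichever library was left out. Cyclin D1 (Ccnd1) stood at 188 and 181 in WT and 411 and 364 in Daxx-KO (log2 fold change 1.07, SE 0.15), and the inhibitors Cdkn2c (p18) and Cdkn1a (p21) at 194 and 139.5 in WT and 694 and 515 in Daxx-KO and at 49.9 and 46.5 in WT and 126 and 155 in Daxx-KO. These 3 genes were higher in both Daxx-KO libraries than in either WT library. Of 34 p53 targets 8 rose and 1 fell (0, 0, 3 and 7 rose), including Perp (8.60 and 12.1 in WT and 75.5 and 77.3 in Daxx-KO). Pmaip1, which encodes the death promoter Noxa, was at 22.4 and 32.7 in WT and 116 and 275 in Daxx-KO. Mdm2 and Sesn1, common p53 targets, were not called (log2 fold changes 0.02 and 0.02). Of the p53 targets 26.5% were called in either direction, against 23.1% of all genes. The survival gene Bcl2 fell (3970.4 and 4346 in WT and 1748 and 1454 in Daxx-KO; log2 fold change −1.38, SE 0.12). Its relative Bcl2l1 fell too (282 and 286 in WT and 118 and 142 in Daxx-KO; log2 fold change −1.13, SE 0.18), and Mcl1 was not called (log2 fold change 0.24).

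Receptor and signalling genes were more often lower than higher. Of 39 cytokine receptors 17 fell and 8 rose (median −0.51; 6, 4, 16 and 15 fell with 1 library left out). The growth hormone receptor Ghr was at 342 and 319 in WT and 10.9 and 6.06 in Daxx-KO (log2 fold change −5.17, SE 0.36). The leukaemia inhibitory factor receptor Lifr stood at 51.6 and 31.00 in WT and 3.28 and 6.06 in Daxx-KO, and the interferon receptors Ifngr1 and Ifnar1 were not called (log2 fold changes 0.25 and 0.32). Of 28 TGF-beta and BMP genes 9 fell and 2 rose (median −0.30; 1, 1, 8 and 8 fell). The BMP receptor Bmpr1a was at 70.5 and 12.1 in WT and 2.19 and 0.909 in Daxx-KO. The co-receptor Tgfbr3 stood at 1206 and 1051 in WT and 263 and 145 in Daxx-KO. The inhibitor of bHLH factors Id2 was at 122 and 82.7 in WT and 13.1 and 10 in Daxx-KO. The inhibitory Smad6 and the repressor Tgif1 rose (log2 fold changes 1.10 and 1.36). Of 25 Wnt genes 6 fell and 1 rose (median −0.23; 2, 2, 6 and 4 fell), with the receptor Ryk at 177 and 134 in WT and 5.47 and 3.64 in Daxx-KO (log2 fold change −4.83, SE 0.45). The transcription factor Lef1 stood at 44.7 and 49.95 in WT and 2.19 and 5.76 in Daxx-KO. Of the Wnt genes 28.0% were called in either direction, against 23.1% of all genes. Of 10 genes matched by the protein kinase C symbols, 1 of which (Prkcsh) is no kinase, 4 fell (4, 3, 4 and 4) and 2 rose. Prkca, the classical alpha isoform, was at 1990.4 and 2091 in WT and 62.4 and 52.7 in Daxx-KO (log2 fold change −5.13, SE 0.15, adjusted p 1.3e-06), and Prkch, Prkcq and Prkce fell as well (log2 fold changes −2.27, −2.02 and −1.73), whereas Prkcb was not called (log2 fold change 0.05).

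Adhesion and guidance genes changed in both directions. Of 27 integrins 9 fell and 4 rose (5, 3, 9 and 12 fell with 1 library left out). Itga9 stood at 270.1 and 369 in WT and 27.3 and 31.5 in Daxx-KO. Itga8 was at 49.9 and 39.6 in WT and 2.19 and 3.94 in Daxx-KO. The collagen receptor subunit Itga1 stood at 58.5 and 44.8 in WT and 603 and 742 in Daxx-KO (log2 fold change 3.68, SE 0.21). The common subunit Itgb1 was at 1758 and 1612 in WT and 1512 and 1745 in Daxx-KO. Of 21 semaphorin and plexin genes 10 fell and 4 rose (median −1.30; 3, 2, 9 and 11 fell). Sema3e, a secreted semaphorin, stood at 63.7 and 43.1 in WT and 0 and 1.82 in Daxx-KO (log2 fold change −4.99, SE 0.85). Plxna4, a semaphorin receptor, was at 354 and 249.8 in WT and 24.1 and 30.3 in Daxx-KO. The co-receptor Nrp1 stood at 169 and 131 in WT and 20.8 and 12.7 in Daxx-KO. Of 22 tetraspanins 8 fell and 2 rose (1, 1, 6 and 6 fell), with Tspan2 at 434 and 468 in WT and 68.9 and 78.2 in Daxx-KO. Cd53 was at 1254 and 1516 in WT and 3726 and 5339 in Daxx-KO. Among 34 potassium channels 7 rose and 6 fell, led by Kcnq3 (20.6 and 6.89 in WT and 229.7 and 279.7 in Daxx-KO) and Kcnj2 (5.16 and 1.72 in WT and 44.9 and 54.2 in Daxx-KO). Of 15 circadian clock genes 5 fell and 1 rose (3, 3, 4 and 4 fell). Npas2, a partner of Bmal1, stood at 141 and 146 in WT and 6.56 and 3.03 in Daxx-KO (log2 fold change −4.71, SE 0.48). The nuclear receptor Rora was at 1529 and 1428 in WT and 143 and 88.2 in Daxx-KO (log2 fold change −3.70, SE 0.21), while Clock and Per1 were not called (log2 fold changes 0.13 and 0.08).

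Among transcription factor families, the Ets gene Etv5 stood at 385 and 313 in WT and 63.4 and 71.5 in Daxx-KO. Etv1 was at 30.96 and 8.61 in WT and 97.4 and 60.3 in Daxx-KO, while the stem-cell Ets factors Erg and Fli1 were not called (log2 fold changes 0.29 and 0.07). Gata3, a factor of T cells and stem cells, fell (189 and 196 in WT and 2.19 and 0.606 in Daxx-KO; log2 fold change −6.42, SE 0.55), and Gata1 was not called (log2 fold change 0.00). Of the interferon regulatory factors, Irf2 fell by 0.48 on the log2 scale and Irf8 and Irf1 were not called (log2 fold changes 0.12 and 0.07).

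Genes that act in the same chromatin processes as Daxx were called, in either direction, at shares near that of all genes. The list of H3.3 chaperones and variants also held other histone chaperones, such as Chaf1b. Of its 15 tested genes 2 fell, Daxx and Chaf1b (492 and 599 in WT and 325 and 319 in Daxx-KO; log2 fold change −0.75, SE 0.14), and Cabin1 rose (log2 fold change 0.38, SE 0.10), so that 3 were called, while 23.1% of all tested genes were. Atrx stood at 5414 and 5808 in WT and 5799.9 and 5621 in Daxx-KO (log2 fold change 0.03, SE 0.10). Of 26 genes of heterochromatin and retroelement silencing 7 rose and 0 fell, so that 26.9% were called (median 0.02). All of these calls were higher, against 10.6% called higher over all genes. The rises were by 0.72 at most on the log2 scale, and fewer were called with any 1 library left out. Atf7ip, a partner of the methyltransferase Setdb1, was at 3422 and 3676 in WT and 6009 and 5681 in Daxx-KO. Trim28, the corepressor of zinc finger proteins, stood at 1216 and 1464 in WT and 1758 and 2082 in Daxx-KO. Dnmt1 and Cbx5 were not called (log2 fold changes −0.20 and −0.19).

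Interferon-stimulated genes, which report on the sensing of foreign or retroelement nucleic acid, did not move together. Of 47 tested 4 rose and 7 fell (median 0.14), 23.4% called against 23.1% of all genes. Iigp1, an immunity-related GTPase, was at 259.8 and 393 in WT and 103 and 97.6 in Daxx-KO. Gbp3, a guanylate-binding protein, stood at 169 and 226 in WT and 535 and 561 in Daxx-KO. Of 25 genes of RNA and DNA sensing 7 rose and 3 fell (0, 0, 6 and 7 rose). The endosomal receptors of RNA fell, Tlr3 from 70.5 and 77.5 to 3.28 and 6.06 (log2 fold change −3.77, SE 0.54) and Tlr7 from 60.2 and 124 to 8.75 and 4.24 (log2 fold change −3.61, SE 0.56). Their trafficking chaperone Unc93b1 rose (385 and 424 in WT and 850.0 and 892 in Daxx-KO; log2 fold change 1.11, SE 0.12). The inflammasome gene Nlrp3 also rose (10.3 and 8.61 in WT and 29.5 and 109.7 in Daxx-KO; log2 fold change 2.48, SE 0.65).

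Of 16 imprinted genes 4 fell and 1 rose (3, 3, 4 and 4 fell with 1 library left out). Igf2r, the receptor that clears IGF2, was at 163 and 236 in WT and 1.09 and 4.24 in Daxx-KO (log2 fold change −5.90, SE 0.57, adjusted p 0.00016). Airn, the noncoding RNA that overlaps it on the other strand, stood at 261 and 160.2 in WT and 6.56 and 9.70 in Daxx-KO (log2 fold change −4.52, SE 0.40, adjusted p 0.00011). Their reads cannot be told apart where they overlap. Slc22a3 in the same cluster on chromosome 17, chosen after its values were seen, was at 2178 and 2858 in WT and 387 and 232 in Daxx-KO (log2 fold change −3.05, SE 0.23). Grb10, an adaptor that dampens insulin signalling, stood at 614 and 499.5 in WT and 37.2 and 83.6 in Daxx-KO (log2 fold change −3.29, SE 0.34), and Sgce fell by 1.27 on the log2 scale. Ube3a and Copg2 were not called (log2 fold changes 0.19 and −0.14).

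By chromosome, leaving out Y with its 1 tested gene, the share of tested genes called ran from 19.9% on chromosome 7 to 27.9% on chromosome 6, and it was 20.7% on chromosome 17, which carries Daxx. Among the same chromosomes the share called lower was highest on chromosomes 6 and 12, at 16.7% and 16.3%, which carry the kappa and heavy-chain immunoglobulin genes. On chromosome 6, 121 genes were called lower, at most 9 of them kappa variable segments. On chromosome 12, 85 were, at most 17 of them heavy-chain variable segments. The part of immunoglobulin genes in these shares was not tested. Neighbouring genes were called in 1 direction in 26 runs of 4 or more tested genes in a row within 1 Mb, 12 higher and 14 lower, which held 115 genes. A run could hold genes that passed the filter on mean value through 1 group alone, such as Gm16485, whose direction the filter fixed. Such genes in other runs described below were Pkd2l1 on chromosome 19 and Capsl, Il7r and Prlr on chromosome 15. Others were Il1rl1 on chromosome 1 and Plscr2, Pgr and Gm32014 on chromosome 9. A run of 4 genes that held such a gene, as on chromosomes 15 and 19, depended on it. The number of runs was 0, 0, 25 and 31 with 1 library left out.

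The longest run described, of 8 genes on chromosome 1 (39665301–40551705), fell and held most of the interleukin 1 receptor cluster. Il18r1 was at 289 and 346 in WT and 63.4 and 28.5 in Daxx-KO (log2 fold change −2.86, SE 0.35). Il1rl1, the interleukin 33 receptor, stood at 20.6 and 55.1 in WT and 0 and 1.21 in Daxx-KO (log2 fold change −4.55, SE 0.97). The decoy receptor Il1r2 was at 103 and 29.3 in WT and 5.47 and 10.6 in Daxx-KO (log2 fold change −2.70, SE 0.68). The signalling receptor Il1r1 stood at 719 and 847 in WT and 592 and 408 in Daxx-KO (log2 fold change −0.67, SE 0.18). Il1rl2, Il18rap, Rfx8 and Map4k4 completed the run, at log2 fold changes of −1.25, −0.92, −3.04 and −0.53. On chromosome 9 (8076461–9239101) 6 genes fell in a row around Trpc6 (1817 and 1340.1 in WT and 18.6 and 3.64 in Daxx-KO) and Pgr, with Cep126 (log2 fold change −3.26), Gm32014 (log2 fold change −4.35), Gm16485 (at least 7.61-fold lower) and Arhgap42 (log2 fold change −1.05). Gm32014 overlaps Trpc6, so its reads are uncertain. A second run on chromosome 9 (92249750–92608428) held the scramblases Plscr1, Plscr2 and Plscr4 and the collagen hydroxylase Plod2, all lower. Plscr2 was at 136 and 141 in WT and 7.66 and 6.06 in Daxx-KO. Plscr4 stood at 535 and 396 in WT and 63.4 and 24.5 in Daxx-KO.

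On chromosome 15 (9436028–10349180) Il7r and the prolactin receptor Prlr (43.01 and 48.2 in WT and 1.09 and 0.909 in Daxx-KO; log2 fold change −4.54, SE 0.74) fell with Capsl and Spef2, which lie beside and between them. Another run on chromosome 1 (194938819–195092249) held Cd34, the complement regulator Cd46 (186 and 229 in WT and 121 and 115 in Daxx-KO) and the noncoding genes Gm16897 and A330023F24Rik, which overlap their neighbours.

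**Figure D5:**
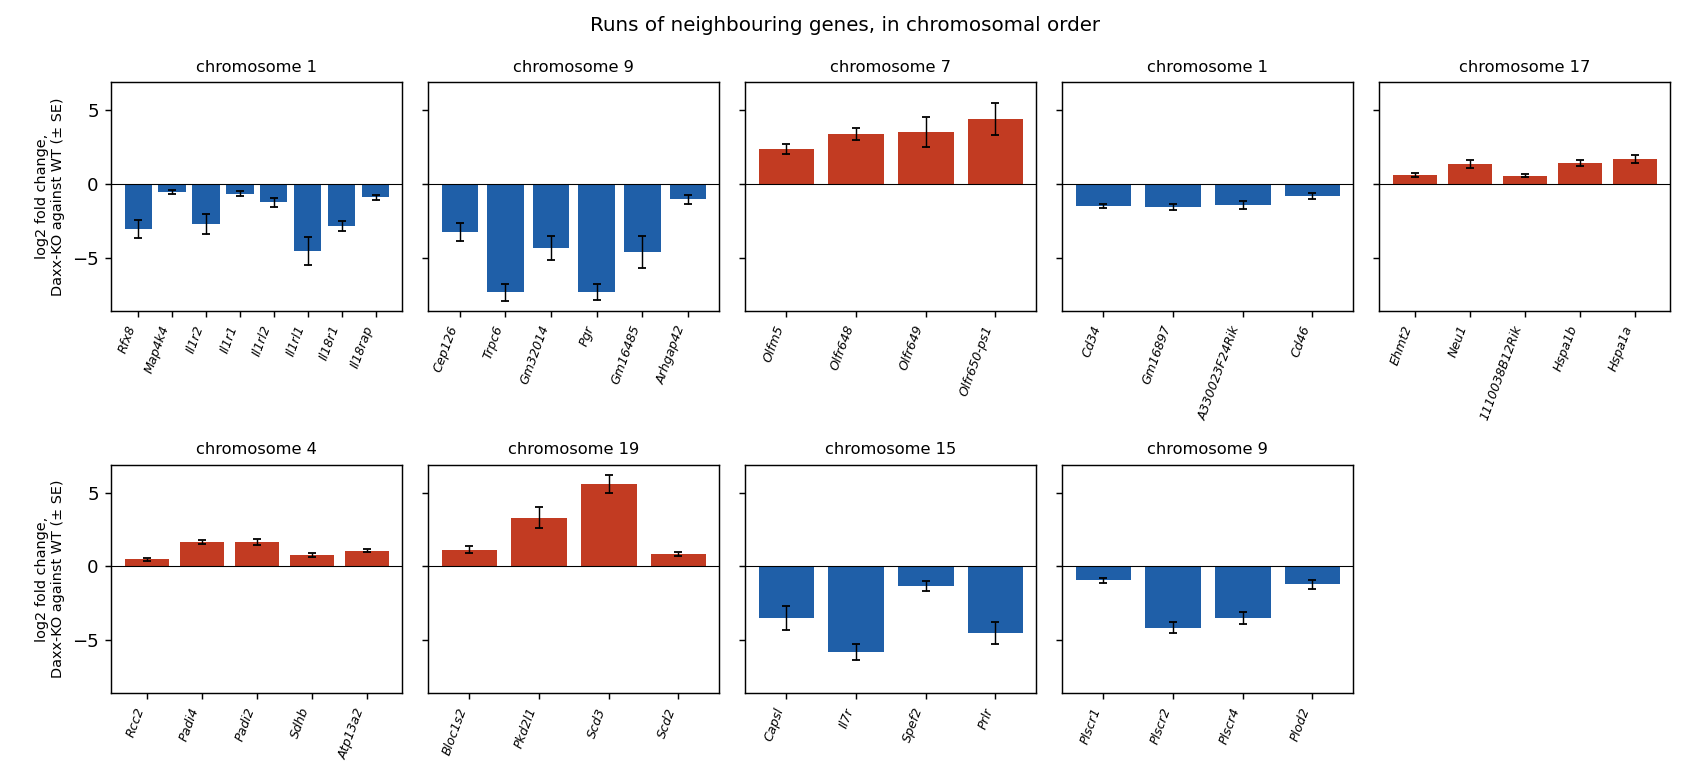
Log2 fold change ± SE, Daxx-KO against WT, of the genes in 9 runs of neighbouring tested genes called in 1 direction, each panel 1 run in chromosomal order; red bars are higher and blue bars lower in Daxx-KO. Trpc6 (log2 fold change −7.36) and Pgr (log2 fold change −7.34) fell furthest within a run and Scd3 (log2 fold change 5.59) rose furthest.

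Of the runs that rose, the one on chromosome 19 (44139246–44306864) held the stearoyl-CoA desaturases Scd2 and Scd3, the channel gene Pkd2l1 and Bloc1s2. Scd2 was at 1232 and 1411 in WT and 2163 and 2576 in Daxx-KO, Scd3 at 18.9 and 3.44 in WT and 422 and 482 in Daxx-KO (log2 fold change 5.59, SE 0.60) and Pkd2l1 at 1.72 and 3.44 in WT and 37.2 and 29.4 in Daxx-KO. Scd3 was low in both WT libraries and high in both Daxx-KO libraries. On chromosome 7 (104153013–104207865) Olfm5 rose from 22.4 and 17.2 to 113 and 100.3. The olfactory receptor genes beside it rose too, Olfr648 from 8.60 and 8.61 to 94.1 and 101, Olfr649 by 10.3-fold (95% interval 3.43 to 50.7) and Olfr650-ps1 by at least 3.95-fold. The beta-globin gene Hbb-bt on the same chromosome was at 17.2 and 8.61 in WT and 177 and 167 in Daxx-KO (log2 fold change 3.71, SE 0.40), while Hbb-bs, the other adult gene, had 5.16 and 0 in WT and 0 and 0.303 in Daxx-KO. In all, 5 of 13 tested olfactory and vomeronasal receptors rose, of 1935 in the table, against 10.6% called higher over all genes. Olfr648, Olfr649 and Olfr650-ps1 were low in WT and passed the filter on mean value through Daxx-KO alone. The filter thus fixed their direction, and the run on chromosome 7 depended on them. On chromosome 4 (140700541–141007330) the arginine deiminases Padi4 and Padi2 rose with Rcc2, Sdhb and Atp13a2. Padi4, which citrullinates histones, stood at 385 and 341 in WT and 1250.3 and 1067 in Daxx-KO (log2 fold change 1.67, SE 0.13), and Padi2 at 72.3 and 63.7 in WT and 209 and 223 in Daxx-KO (log2 fold change 1.66, SE 0.21).

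On chromosome 17 (34898469–34972156), within the MHC, Ehmt2, Neu1, 1110038B12Rik, Hspa1b and Hspa1a rose, with Ehmt2, a histone H3 lysine 9 methyltransferase, at 618 and 524 in WT and 803 and 899 in Daxx-KO (log2 fold change 0.58, SE 0.13). The sialidase Neu1 was at 49.9 and 51.7 in WT and 118 and 143 in Daxx-KO (log2 fold change 1.34, SE 0.26).

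The Ms4a cluster of membrane proteins on chromosome 19 was chosen after its values were seen. Of 6 tested Ms4a genes 5 rose (1, 1, 6 and 5 with 1 library left out). Ms4a4c stood at 13.8 and 12.1 in WT and 583 and 514 in Daxx-KO (log2 fold change 5.30, SE 0.25, adjusted p 6.3e-06). Ms4a3 was at 61.9 and 6.89 in WT and 671 and 764 in Daxx-KO. Ms4a4b stood at 29.2 and 12.1 in WT and 214 and 189.7 in Daxx-KO. Ms4a6b was at 131 and 148 in WT and 476 and 467 in Daxx-KO. Ms4a6c stood at 1.72 and 0 in WT and 22.97 and 17.6 in Daxx-KO and passed the filter on mean value through Daxx-KO alone. Every Daxx-KO library exceeded both WT libraries in these genes. Their neighbour Oosp1, an oocyte-secreted protein gene, was at 12.04 and 0 in WT and 154 and 93.03 in Daxx-KO (log2 fold change 5.06, SE 1.05). Ms4a4a of the same cluster was at 3.44 and 10.3 in WT and 0 and 0.303 in Daxx-KO, too low to be tested.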

How the data were processed

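RNA-seq was made from KLS cells of mouse bone marrow. The authors deposited a table of 51812 genes whose values, treated here as a signal, are reads over 1 size factor for each library. Per the submitters' processing notes and the study's methods, adapters were trimmed (cutadapt 1.13), reads were aligned to mm10 (STAR 2.5.3) and counts were normalized with DESeq2 1.16.1. Use of strand is not given in the sources used here. Whole reads were recovered for 100.0% of values within 0.01. Gene positions came from GENCODE M21, which matched 51268 rows.

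The 4 untimed libraries alone entered the fit, and 107 columns of other tables were not used. Genes whose mean value reached 10 were tested on log2(value + 1) with limma 3.58.1 (mean-variance trend, R 4.3.3), with Benjamini-Hochberg adjustment over all genes tested and a threshold of 0.05; fold changes are on the log2(value + 1) scale, which understates the change of low genes. The steps were tested on simulated data. Ratios for genes with 1 to 3 reads in a group carry an exact 95% interval of counting error only, and the floor for 0 was 3 reads per library. Reads without molecular identifiers are not independent molecules.

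The 13 marker lists, 48 pathway lists and 95 symbol families were described by counts and medians, with no test of a list. The members and lists were chosen with earlier results of these data known. Named were Daxx and its list, the 15 largest rises and falls (mean value of 50 or more, leaving out immunoglobulin genes, predicted Gm genes and Riken clones), up to 5 called members (mean value of 20 or more) and 3 members not called of each list described, the genes of runs described, and markers. The results of some genes are not reported here. Alternatives, 13 in all, were edgeR 4.0.16 and DESeq2 1.42.0 on the recovered reads, TMM scaling, other pseudocounts and filters, thinning to equal depth, a replicate block and each library left out.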

Additional observations from a re-analysis of the deposited data

How the results depend on the processing

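The count of 3118 called genes stayed between 2554 and 3343 under TMM scaling (3213), edgeR (3241), DESeq2 (2942), thinning of every library to 3857858 reads (2554), pseudocounts of 0.25 (3037) and 5 (3150), a minimum mean of 50 (2762) and the replicate block (3343), and fell to 1751 with no filter on low values. With 1 library left out it ran from 346 to 2839, lowest without Daxx-KO library 2. Of the genes called without Daxx-KO library 1 and without Daxx-KO library 2, 540 and 346 were called in the same direction with all 4 libraries. The replicate numbers were not shown to pair the samples: with 2 pairs, deviations of same-numbered libraries from their group means correlated at −0.0095, so the block rests on a shared number only. The runs of neighbouring genes, recounted under each alternative after the data were seen, numbered 26 with all libraries, 2 with no filter, and 0 to 31 with 1 library left out; the cause was not tested. Of the counts of calls per list and direction, 117 moved by over 1.5 times and 124 did not with no filter, 16 and 7 stayed without Daxx-KO library 1 and 2, 60 and 65 moved without WT library 1 and 2, and at most 43 moved under any other setting. Among the genes named under the rule, 9, most of them of neutrophils and none called with all libraries, had opposite directions without WT library 1 and without WT library 2. Without WT library 1, the log2 fold changes of Fcgr3, Retnlg, Lcn2, Ltf, Mmp8, Mmp9, Ngp, S100a8 and S100a9 were 2.36, 3.13, 7.44, 4.34, 3.29, 3.84, 4.02, 6.13 and 3.81, and without WT library 2 they were −3.16, −4.42, −1.01, −3.85, −3.13, −2.77, −3.63, −1.89 and −3.19. A further 182 changes of sign, over these genes and settings, were of genes not called with all libraries or under the setting. TMM scaling moved the median log2 fold change of all genes from 0.03 to 0.07. Depth limits genes near the filter most in the WT libraries, which held the fewest reads.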
